A study of Mus musculus with 14 samples.

Results

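HDAC3 binding sites that were listed at both times of day in mouse quadriceps muscle are described here. Members were chosen by position within the deposited lists, which hold only peaks that passed the authors' score threshold. A member is a peak of the ZT10 list that overlaps a peak of the ZT22 list by 1 bp or more, and 710 peaks met this rule. They made up 17.3% of the 4093 peaks listed at ZT10 and 48.7% of the 1459 listed at ZT22, with exact 95% binomial intervals of 16.2% to 18.5% and 46.1% to 51.3%. Together the lists held 4842 distinct regions, of which 3383 were listed at ZT10 only and 749 at ZT22 only. Each list came from 1 HDAC3 ChIP-seq library of wild-type quadriceps from male C57BL/6 mice aged 4 months, fed normal chow, kept in a normal light and dark cycle and given no treatment. Zeitgeber time (ZT) is measured in hours after the lights go on. ZT10 is thus a late light-phase and ZT22 a late dark-phase sample. The labels do not say how many animals went into a library. With 1 library per time there is no replicate spread, so no difference between the times or between classes of peaks was tested. All values below describe these libraries, and intervals on shares cover only the counting of peaks, which are not independent of their neighbours.

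HDAC3 is a histone deacetylase, an enzyme that removes acetyl groups from histone tails, and it is the catalytic subunit of the NCoR and SMRT corepressor complexes. It does not bind DNA by itself and is brought to the genome by transcription factors. Among these are nuclear receptors such as REV-ERB alpha, a repressor of the circadian clock whose own level cycles over the day. In ChIP-seq, DNA bound by the protein is enriched with an antibody and sequenced, and a peak marks a short stretch where the recovered reads pile up. Comparing both times of day separates sites listed at ZT10 and at ZT22 from sites listed at a single time. A site that is not listed at a time may still carry signal there, below the authors' threshold.

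Each peak was 150 bp long and carried a score from the authors' peak calling. Its scale is not stated in the sources at hand. The lowest score was 14.3 in both lists. Scores moved in whole steps, of 1.0994 units at ZT10 and 1.0248 units at ZT22. Of the scores, 99.95% at ZT10 and 100% at ZT22 were whole multiples of these within 0.05 units. The lowest score was thus 13 steps at ZT10 and 14 steps at ZT22. Whether a step stands for 1 read is not given, so the depth behind a score is unknown. The names of the lists state a filter against the HDAC3 knockout, so a site missing from a list may have lacked a peak or may have been removed, and these cannot be told apart. The series holds 1 HDAC3 ChIP-seq library of the knockout, taken at ZT10, and none at ZT22. A knockout of the same time was thus at hand in the series for the ZT10 list only.

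As a check of tissue and target, the RNA-seq of resting muscle at ZT10 from the same study was read, in FPKM (sequenced fragments adjusted for gene length and library size). In 3 wild-type libraries the 7 skeletal muscle markers (such as Acta1, Ckm and Myh4) summed to between 53511 and 63017 FPKM. The 3 markers each of endothelium, fat and macrophages summed to 43.2 to 50.3, 306 to 472 and 6.55 to 7.91 FPKM. Nearly all of the fat sum came from Fabp4, at 468, 436 and 303 FPKM. The other fat markers were low, Adipoq at 3.90, 5.63 and 2.45 FPKM and Plin1 at 0.29, 1.04 and 0.66 FPKM. Hdac3 was at 33.3, 31.0 and 23.7 FPKM in wild type and at 5.51, 6.29 and 8.16 FPKM in the 3 knockout libraries. The wild-type and knockout values of Hdac3 did not overlap. The labels do not say how HDAC3 was removed, and these are other libraries than those of the ChIP-seq.

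A peak with a high score was listed at both times more often than a peak with a low score. Of ZT10 peaks with a score from 14 to below 16, 46 of 879 (5.23%) were also listed at ZT22. The share was 20.1% (121 of 603) from 20 to below 25, 44.7% (59 of 132) from 40 to below 50 and 75.6% (31 of 41) from 75 upward. From the other side, 34.2% of ZT22 peaks (123 of 360) with a score below 16 were listed at ZT10. That share was 61.2% (172 of 281) from 20 to below 25 and 90% (18 of 20) from 40 to below 50. In every score class the share was thus larger when read from the ZT22 list, which is the shorter of the pair. Since a peak had to pass the authors' score threshold to be listed, the scores helped choose the members, and these shares are a description of that choice.

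**Figure D1:**
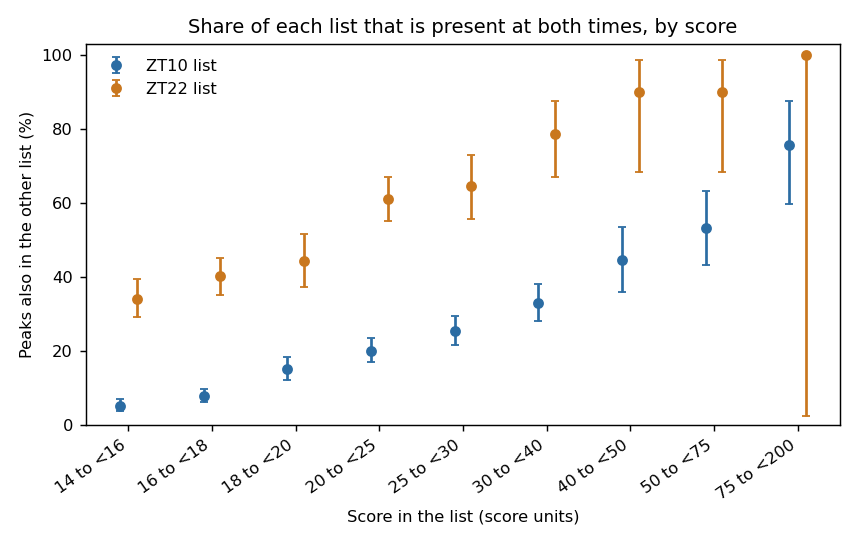
Share of peaks (%, vertical axis) that were also in the other list, by score class in their own list (horizontal axis, score units), for the ZT10 list and the ZT22 list. Points are shares and bars exact 95% binomial intervals. The share goes up from 5.23% to 75.6% along the ZT10 scores, and the last ZT22 class holds 1 peak.

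Among the 100 highest scored peaks, 65 at ZT10 and 84 at ZT22 were present in both lists. Of the 10 highest, 7 at ZT10 and 8 at ZT22 were. The members had a median ZT10 score of 26.4 (quartiles 19.8 and 36.3), against 17.6 (16.5 and 24.2) for peaks listed at ZT10 only. Their median ZT22 score was 19.5 (quartiles 16.4 and 24.6), against 17.4 (15.4 and 19.5) for peaks listed at ZT22 only. The distributions overlapped widely at both times, since every class began at 14.3 and the highest peak listed at ZT10 only reached 138.5.

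The number in the authors' name of each peak gave a further view of its standing. Names run as a chromosome and a number, and within a chromosome the number went up as the score went down (Spearman's rho across peaks between -0.986 and -0.968 on the 20 chromosomes at ZT10, and between -0.990 and -0.952 at ZT22). The highest numbers per chromosome added up to 17516 at ZT10 and 9241 at ZT22. If each number stands for 1 peak, the lists hold at most 23.4% and 15.8% of the numbered peaks. Of the numbers 1 to 10 on all chromosomes, 89 of 200 were listed at ZT10 and 41 of 200 at ZT22. Of those, 56 (62.9%) and 36 (87.8%) were present at both times. The median number of a member was 139.5 at ZT10 and 132 at ZT22, against 387 and 236 for peaks of a single list.

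Where a site was listed at both times, its score was mostly higher at ZT10. The ZT10 score was the higher in 571 of 710 pairs, the ZT22 score in 126, and 13 pairs had equal scores. The median log2 ratio of ZT22 to ZT10 scores was -0.36, with an interval for the median over pairs of -0.41 to -0.32, and the SD over pairs was 0.49. This is a median 1.29-fold higher score at ZT10. The middle 90% of pairs lay between -1.30 and 0.28. In 96 pairs (13.5% of all pairs) the ZT10 score was at least 2-fold higher, and in 0 pairs (0%) was the ZT22 score at least 2-fold higher. At 1.5-fold these counts were 246 and 6.

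How the scores are scaled between the libraries bears on this balance. The medians of the whole lists were 18.7 at ZT10 and 17.4 at ZT22. With each score divided by the median of its list, every log2 ratio moved up by 0.10, and 206 pairs were higher at ZT22 against 496 at ZT10. With the score divided by its step, the number higher at ZT22 was 182. The median stayed below 0 under both scalings, at -0.26. Since both lists are cut at the same lowest score, division by list medians cannot correct for a difference in depth.

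**Figure D2:**
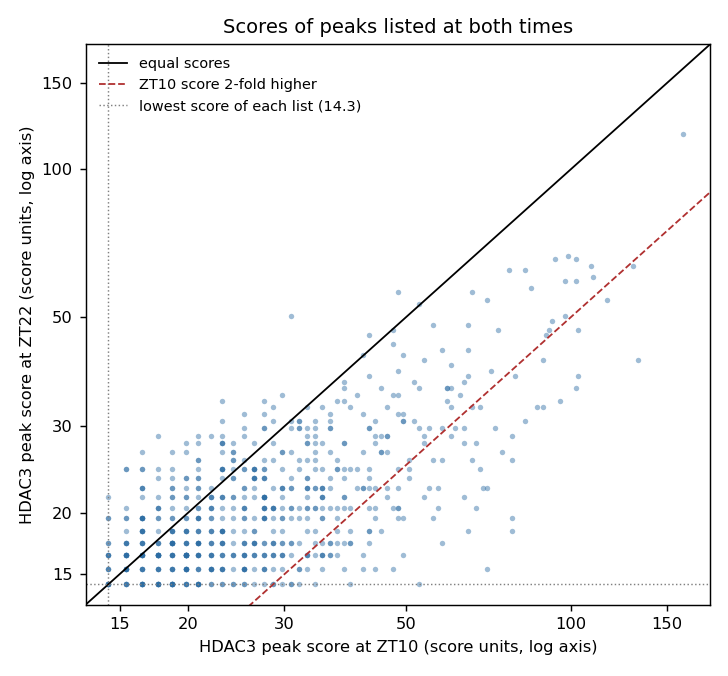
Score at ZT22 against score at ZT10 (score units, both axes logarithmic) for the 710 peaks listed at both times, 1 point per pair. The solid line marks equal scores, the dashed line a ZT10 score 2-fold higher, and dotted lines the lowest score of 14.3. Most points lie under the solid line and 96 on or under the dashed one. The distance from the solid line widens toward high ZT10 scores, which are themselves part of that distance.

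The gap between the times was wider in higher score classes when pairs were sorted by both scores or by the ZT10 score. To avoid sorting by either time alone, pairs were classed by the geometric mean of both scores. The median log2 ratio was 0.00 in the 51 pairs below 16, -0.39 in the 192 pairs from 20 to below 25, -0.68 in the 100 pairs from 30 to below 40 and -0.91 in the 27 pairs from 50 to below 75. In the 10 pairs from 75 upward it was -0.75. Sorted by the ZT10 score alone, the median went from 0.09 in the 46 pairs below 16 to -1.03 in the 31 pairs from 75 upward. Sorted by the ZT22 score alone, it stayed between -0.57 and -0.26 in the 8 classes with 2 or more pairs. The ZT10 score is part of the ratio, so a sort by it lowers the ratio in high classes by itself. A sort by the ZT22 score acts the other way. The geometric mean holds both scores, and ZT10 scores spread more widely over members (quartiles 19.8 and 36.3, against 16.4 and 24.6). These sorts thus cannot show whether the gap depends on the strength of a site. Low pairs are bounded by construction, because a partner under 14.3 is not listed. The small gap in the lowest classes was thus partly set in advance. Pair scores were correlated across sites (Spearman's rho 0.59, n = 710), which share a library at each time. Of the 50 members with the highest scores at ZT10, 30 were among the 50 highest at ZT22.

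If a step is taken as 1 read, a member rested on a median of 24 reads at ZT10 and 19 at ZT22. On that reading, the exact 95% interval of the ratio from counting alone held 1 in 564 of 710 pairs (79.4%). It lay wholly above 1 toward ZT10 in 145 pairs and wholly toward ZT22 in 1. Such intervals compare these 2 libraries and not the times of day. For most single sites, then, the difference between the lists was within the counting error that this reading gives, while the lean of the pairs as a set was toward ZT10.

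The strongest site of both lists was the same. The peak at chr5:132034430-132034579 (mm9, as are all coordinates here, counted from 1) scored 160.5 at ZT10 and 117.9 at ZT22, the highest score at each time, with centres 19 bp apart. It also carried the number 1 of its chromosome in both lists. The ZT10 score was 1.36-fold higher, below the 1.68-fold median of the 10 pairs of highest mean score. A gene annotation of this build was not used here, so the sites are named by position and no gene is assigned to them.

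The next strongest were spread over other chromosomes. The site at chr19:47376852-47377001 scored 129.7 at ZT10 and 63.5 at ZT22, and that at chr2:70834632-70834781 scored 108.8 and 63.5. On chromosome 6 the site at chr6:5459909-5460058 scored 102.2 and 65.6. The site at chr1:74631785-74631934 scored 109.9 and 60.5, and that at chr16:20091367-20091516 scored 98.9 and 66.6. All of these were higher at ZT10, as were the other 4 of the 10 strongest pairs. Of those, chr9:40126452-40126601 scored 116.5 and 54.3, a 2.15-fold difference with centres 2 bp apart. The site at chr9:25326901-25327050 had the same start and end in both lists and scored 97.8 and 59.4. The last of the 10 were chr15:62838488-62838637, at 93.5 and 65.6, and chr2:30284688-30284837, at 102.2 and 59.4. Their centres lay 73 and 64 bp apart, the widest offsets among the 10.

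At the ZT10 end of the range, a few sites were among the stronger at ZT10 and at or below the members' median score of 19.5 at ZT22. The site at chr7:88501334-88501483 went furthest, from 70.4 at ZT10 to 15.4 at ZT22, a 4.57-fold difference. On its chromosome it carried the number 11 at ZT10 and 486 at ZT22. The site at chr14:31451971-31452120 scored 78.1 and 18.4 (4.24-fold) and that at chr15:57550974-57551123 scored 78.1 and 19.5 (4.01-fold). The other 2 of the 5 lowest ratios were chr12:4721773-4721922, at 52.8 and 14.3, and chr4:148320530-148320679, at 64.9 and 18.4. In 3 of these 5 the centres lay within 18 bp of each other, and in the others 33 and 52 bp apart. With a step taken as 1 read, the counting interval of the fold for the chromosome 7 site was 2.58 to 8.65.

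Sites that leaned toward ZT22 did so by less. The largest ratio belonged to chr11:116991435-116991584, with 17.6 at ZT10 and 28.7 at ZT22. The site at chr7:90289159-90289308 stood apart from the rest in level, at 30.8 and 50.2, and is the 1 pair whose counting interval, with a step taken as 1 read, lay wholly toward ZT22. Its number on the chromosome was 98 at ZT10 and 11 at ZT22. The other 3 of the 5 were low at ZT10: chr9:57856920-57857069 at 16.5 and 26.6, chr5:123873983-123874132 at 15.4 and 24.6, and chr10:116458253-116458402 at 15.4 and 24.6. With a step taken as 1 read, the counting intervals of these 3 and of the chromosome 11 site held a ratio of 1.

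At the threshold, 19 members had the lowest score at ZT10, 62 had it at ZT22, and 7 had it at both times. Examples were chr1:4847666-4847815, which scored 14.3 and 16.4 and had identical borders in both lists, and chr1:43155400-43155549, which scored 20.9 and 14.3. Another, chr1:75930498-75930647, scored 23.1 and 14.3. Over the whole lists, the score of 14.3 took ranks 3593 to 4093 at ZT10 and 1240 to 1459 at ZT22.

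The centres of paired peaks lay close together, and closer for strong sites. Since all peaks have the same length, the distance between centres is also the part of the peak that is not shared. Its median was 33 bp (interval 30 to 35), with quartiles of 15 and 60.8 bp. In 10 pairs the centres were identical, in 292 (41.1%) they lay within 25 bp, and in 591 (83.2%) the peaks overlapped by 75 bp or more. The median distance was 40 bp in pairs with a ZT10 score below 16, 35 bp from 25 to below 30, and 18 bp from 75 upward. The ZT22 centre lay at the higher coordinate in 330 pairs and at the lower in 370, with a median signed offset of -3 bp.

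Distances ran off smoothly toward the limit of the rule. By 25 bp class, 278, 211, 99, 67, 34 and 21 ZT10 peaks had their nearest ZT22 centre within the 150 bp that make an overlap. Beyond it, 47 peaks lay 150 to 299 bp from the nearest ZT22 centre, and 26 lay 300 to 449 bp away. Just inside the rule were chr1:16986148-16986297, which overlapped its partner by 4 bp and scored 18.7 and 17.4, and chr5:38928211-38928360, by 5 bp at 23.1 and 15.4. Just outside were chr17:56432532-56432681, with a gap of 3 bp at 19.8 and 19.5, and chr2:60561004-60561153, with a gap of 5 bp at 44.0 and 26.6.

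**Figure D3:**
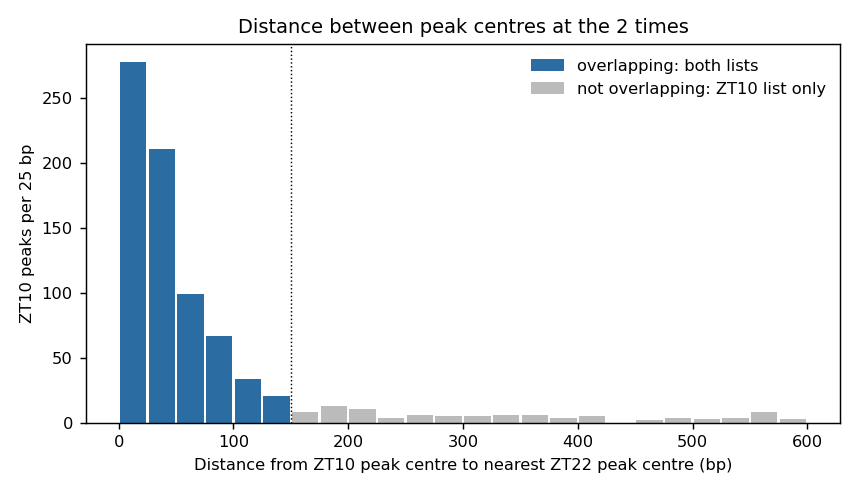
Number of ZT10 peaks (vertical axis) in each 25 bp class of distance from their centre to the nearest ZT22 peak centre (bp, horizontal axis). Blue bars are the peaks listed at both times and grey bars are peaks that do not overlap. The counts go from 278 in the first class to 21 in the last class inside the 150 bp limit.

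Members lay somewhat closer to other ZT10 peaks than the rest of the list did. The median distance from a member to the nearest other ZT10 peak was 30867 bp (interval 25243 to 36204), against 50348 bp (interval 46149 to 54645) for peaks listed at ZT10 only. Another ZT10 peak lay within 12500 bp of 249 members (35.1%, interval 31.6% to 38.7%) and of 876 other peaks (25.9%, interval 24.4% to 27.4%). The shares were 21.8% and 15.5% within 5 kb, and 7.04% and 6.09% within 1 kb. No 2 peaks of a list overlapped, and the closest 2 members lay 673 bp apart.

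Peaks were also compared within classes of ZT10 score, since members score higher. From 14 to below 16, the share with a neighbour within 12500 bp was 34.8% for members and 23.4% for peaks listed at ZT10 only. From 20 to below 25 it was 36.4% and 25.3%. From 30 to below 40 it was 34.5% and 34.0%, and from 50 to below 75 it was 30.4% and 32.7%. Of the 9 score classes, each share lay outside the interval of the other in 1, that from 20 to below 25. In the 3 classes below 20 the share of members lay above the interval of the other peaks, whose own share lay within the interval of the members. In the 5 classes from 25 upward each share lay within the interval of the other. Neighbouring peaks count each other, so these intervals may be too narrow, and no difference between the classes was tested.

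**Figure D4:**
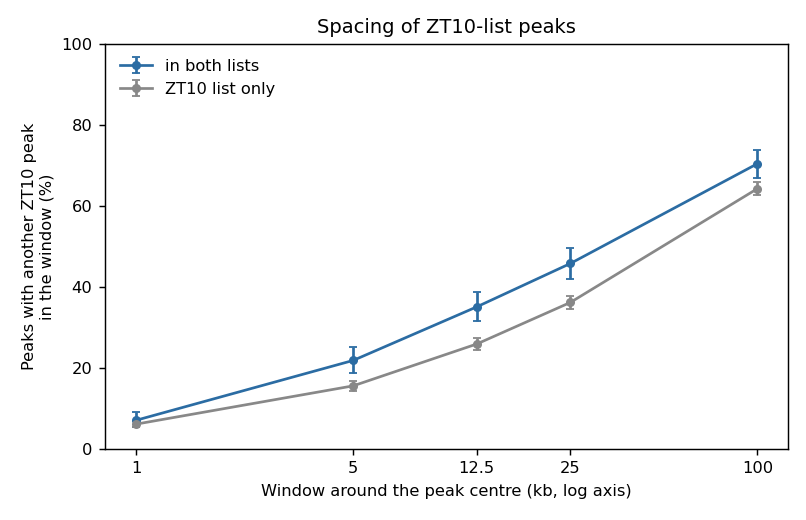
Share of peaks (%, vertical axis) that have another ZT10 peak within a window (kb, logarithmic horizontal axis) for peaks in both lists and peaks of the ZT10 list only, with exact 95% binomial intervals. Members lie above the other peaks in every window, at 35.1% against 25.9% for 12500 bp. At 1 kb, with 7.04% against 6.09%, the intervals overlap.

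Members were least frequent among ZT10 peaks that stood alone and most frequent in groups of 4 or more, with near-equal shares in groups of 2 and 3. Linking ZT10 peaks whose centres follow within 12500 bp, 461 of 2968 peaks that stood alone were members (15.5%, interval 14.2% to 16.9%). The share was 20.9% (162 of 774) in groups of 2, 21.3% (48 of 225) in groups of 3 and 31.0% (39 of 126, interval 23.02% to 39.8%) in groups of 4 or more. Median ZT10 scores in these classes were 18.7, 19.8, 19.8 and 19.8. Where the nearest ZT10 peak lay within 12500 bp, it was itself a member for 28.9% of members (72 of 249) and for 19.98% of the other peaks (175 of 876). In 176 groups that held members and other ZT10 peaks side by side, the highest ZT10 score belonged to a member in 113, to another peak in 54, and was tied in 9. These groups held 203 members, with a median ZT10 score of 25.3, and 233 other peaks, with a median of 19.8. Since the score threshold helped choose the members, these values in part restate that choice.

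Members with and without close neighbours had near-equal ratios between the times. The median log2 ratio of ZT22 to ZT10 was -0.37 in the 249 members with a ZT10 neighbour within 12500 bp and -0.36 in the 461 without. Median ZT10 scores were 27.5 and 25.3, and the median ZT22 score was 19.5 in both. Centre distances were 35 and 32 bp. A peak listed at ZT22 only lay within 12500 bp of 6.48% of members and 7.86% of peaks listed at ZT10 only.

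Most members stood alone when only members were linked. By the same distance, 622 of 710 stood alone, 35 groups had 2, 2 had 3 and 3 had 4. When all 4093 ZT10 peaks were linked, 2968 stood alone. Members are fewer, and fewer peaks lie further apart, so these counts cannot show whether members keep apart. The tightest group of 4 spanned 11.8 kb on chromosome 7 (chr7:53596996-53608796). Its ZT10 scores were 39.6, 97.8, 27.5 and 34.1 in order of position, and its ZT22 scores 17.4, 50.2, 29.7 and 20.5. Here 3 sites were higher at ZT10, by 1.66-fold to 2.28-fold, while that of 27.5 at ZT10 was slightly higher at ZT22. The span of this group held 4 ZT10 peaks, and linking all ZT10 peaks gave a group of 6 there.

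The other groups of 4 were weaker. That at chr7:119885347-119907299 spanned 21.95 kb with ZT10 scores of 20.9, 20.9, 22 and 27.5 and ZT22 scores of 16.4, 24.6, 17.4 and 20.5. It held 6 ZT10 peaks in all. That at chr8:87233999-87259755 spanned 25.8 kb with ZT10 scores of 19.8, 27.5, 37.4 and 44.0 and ZT22 scores of 18.4, 19.5, 17.4 and 22.5. The span of the chromosome 8 group held 5 ZT10 peaks. All 4 members there were higher at ZT10, and the log2 ratio ranged from -1.10 to -0.11. In the weaker chromosome 7 group it ranged from -0.42 to 0.24.

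Members were found on all 20 chromosomes with listed peaks, about in proportion to the ZT10 list. On the autosomes the share of ZT10 peaks that were members ranged from 13.2% on chromosome 10 (31 of 234, interval 9.18% to 18.3%) to 21.6% on chromosome 9 (50 of 231, interval 16.5% to 27.5%). The interval of each of the 20 chromosomes held the 17.3% of the whole list. Chromosomes 1 and 7 had the most members, 58 and 57. Of the ZT22 peaks of a chromosome, between 39.2% (chromosome 10) and 56.4% (chromosome 8) were members on the autosomes. The median log2 ratio was below 0 on all 20 chromosomes, and on the autosomes it ranged from -0.59 (chromosome 16, 20 members) to -0.21 (chromosome 13, 31 members). Chromosome 13 also had the most pairs higher at ZT22, 13 of 31.

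**Figure D5:**
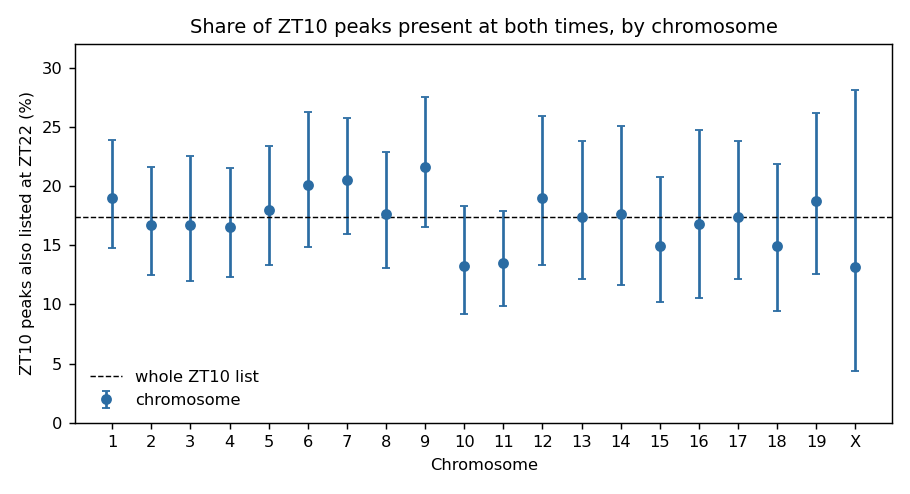
Share of the ZT10 peaks of each chromosome that were also listed at ZT22 (%, vertical axis) with exact 95% binomial intervals, and the share of the whole ZT10 list as a dashed line (17.3%). The intervals of all chromosomes cross the line, and that of chromosome X, with 38 peaks, is the widest.

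The X chromosome held few peaks, 38 at ZT10 and 6 at ZT22, and 5 of them were members. Their positions were picked out after the values were seen. The sites at chrX:22713876-22714025 and chrX:132216382-132216531 scored 53.9 and 69.3 at ZT10 and 21.5 and 22.5 at ZT22. The site at chrX:158020116-158020265 scored 35.2 and 16.4, and that at chrX:141930014-141930163 scored 17.6 and 15.4. The last, chrX:147772466-147772615, was at the lowest listed score at ZT10, 14.3, and at 21.5 at ZT22. Of the 5, 3 were over 2-fold higher at ZT10 and 1 was higher at ZT22.

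Along the chromosomes, consecutive members were a median of 1.34 Mb apart, and the nearest other member lay at a median of 470758 bp. Of 690 gaps between consecutive members, 54 were longer than 10 Mb and 136 held no other ZT10 peak. The longest lay on chromosome X, between positions 22714025 and 132216382, and spanned 109.5 Mb with 19 ZT10 peaks and 1 ZT22 peak inside. On the autosomes the longest were 26.4 Mb on chromosome 16, from 58601189 to 85000693, with 10 ZT10 peaks and 0 ZT22 peaks inside, and 26.4 Mb on chromosome 1, from 94245159 to 120637933, with 12 and 5. These stretches were thus not empty of HDAC3 peaks at ZT10, and that on chromosome 16 had none listed at ZT22.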

How the data were processed

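The series holds 14 samples, and 8 were read: 2 wild-type HDAC3 ChIP-seq libraries and, for a check of tissue and target, 6 RNA-seq libraries (3 wild type, 3 knockout). The other 6 were not analysed here. Peaks were made with Bowtie and HOMER on mm9, per the submitters' processing notes, and each deposited peak carries a score by the authors. Versions, settings and pooling are not stated in the sources at hand. The deposited names of the lists state a 1 RPM minimum and filtering by the knockout, which the lists alone cannot show. For the RNA-seq, the same notes name TopHat2 and Cuffdiff, with which the authors made the deposited FPKM values on mm9.

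Overlaps, distances between centres and single-linkage groups (12500 bp) were computed with Python 3.11.15, NumPy 2.4.6, pandas 2.3.3 and SciPy 1.17.1, and plotted with Matplotlib 3.10.9. The functions were tested on simulated peaks with known pairs. Intervals are exact binomial at 95%, and those of medians come from binomial order statistics over pairs. No test was run, as each time has 1 library. The score step was the value between 0.9 and 1.3 that made the most scores whole multiples. Regions were named by rule: the 10 pairs of highest geometric mean, the 5 highest and 5 lowest ratios, the 3 lowest smaller scores, the 3 largest member groups and the 3 widest gaps, ties by position. The members and these choices were set with earlier results of these data known. The planned link to genes and their change in the knockout was not run, since gene positions in mm9 were not used here. Alternatives in overlap, score minimum, scaling, partner and window are given at the end.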

Additional observations from a re-analysis of the deposited data

How the results depend on the processing

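No paired analysis was possible because each time has 1 ChIP-seq library and no test was run. Of 57 values under 13 alternatives, 21 stayed within 1.5 times (counts) or within the interval of the reported value. The median log2 ratio was below 0 in every alternative run for it, but some could hardly have reversed its sign. With an overlap of 75 bp or more, members were 14.4% of the ZT10 and 40.5% of the ZT22 list, with a median centre distance of 26 bp. With centres within 25 bp there were 292 members (7.13% and 20.01%), a median log2 ratio of -0.42 and 51 pairs higher at ZT22. A gap of up to 150 bp gave 51.7% of the ZT22 list. With a score of 20 or more there were 312 members (60.1% of the ZT22 list), a log2 ratio of -0.44, 47 pairs higher at ZT22, a centre distance of 25 bp, and 23.7% with a neighbour, at a median of 81139 bp. With 30 or more there were 84 (13.2% and 75.7%), with -0.56, 5 pairs, 22 bp, 21.4% and 243358 bp. Fewer peaks are left to be neighbours under these minimums. Division by list medians gave -0.26 and 206 pairs higher at ZT22. Both lists are cut at the same lowest score and their medians lie near it, so this scaling cannot correct for depth. Windows of 5 and 25 kb gave 21.8% and 45.8% with a neighbour. Counting members alone as neighbours gave 12.4% and 470758 bp. The remaining 2 alternatives were chosen after seeing the data. Division by steps gave a log2 ratio of -0.26. Using as many ZT10 peaks as ZT22 peaks, those of highest score (22 or more), gave 453 members (31.0% of each), a log2 ratio of -0.61 and 36 pairs higher at ZT22. Here the minimum of 22 applied to the ZT10 scores alone, so the choice itself lowered the ratio and cannot test its sign. Depth is unknown, so no counting floor is given.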
